A study of Mus musculus with 5 samples.

Results

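Immediate early genes are transcribed within minutes of a signal at the cell surface, without the need for new protein, and the RNA of most of them is short-lived. Receptors that use gp130, the shared signalling subunit of the IL-6 family to which IL-11 belongs, activate STAT3 and also the ERK kinases. ERK phosphorylates the ternary complex factors of the ELK group, which sit with serum response factor (SRF) on promoters of immediate early genes such as those of the Egr family. The 10 genes described here were Egr1, Egr2 and Egr3, which encode zinc finger transcription factors, Nr4a1, Nr4a2 and Nr4a3, which encode orphan nuclear receptors, Ier2, Ier3 and Ier5, which are named as immediate early response genes, and Srf itself. They were chosen by name, with earlier results of these arrays known, and are 10 of 17945 genes with a symbol among 32917 features tested.

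Whole-colon RNA of wild-type C57BL/B6 mice was measured on 5 single-colour Agilent arrays, each of which held the RNA of 1 mouse. The 2 Control arrays held mice for which the labels give no injection, and the 3 NT-3N arrays held mice whose colon was taken 3 hr after NT-3N was given intravenously. NT-3N is a modified human IL-11 that, per the methods, activates the IL-11 receptor. All 5 arrays were on 1 slide. Injection and agonist cannot be told apart, since no vehicle group was analysed here. The injected mice were 8 weeks old. No dose is given because the labels and the methods state it in different units of mass.

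The 10 genes were represented by 14 probes. Egr1, Egr2, Nr4a1, Ier2, Ier3, Ier5 and Srf had a single probe each, Nr4a2 and Nr4a3 a pair, and Egr3 the other 3. Of the 14 probes 11 passed the filter on dim signals, each of them on all 5 arrays, so all 10 genes were tested, and the brightest probe stood for the gene. Signals are given as log2 of the processed signal after quantile normalization, a scale on which a probe can be compared between arrays but not with another probe. A change is the NT-3N mean minus the Control mean on that scale. Over all features, arrays correlated between 0.980 and 0.992, and 70.6% to 73.0% of all probes exceeded background clearly. All 9 epithelial markers and all 10 smooth muscle markers, which the wall of the colon should hold, passed the same filter.

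RefSeq promoter windows were read for 7 of the 10 genes, from 250 bases before to 50 bases after a transcription start, on GRCm38.p6. Egr1 was left out of this reading, and no window was found for Egr3 and Ier2. The counts of sites below therefore say nothing of Egr1, Egr3 or Ier2. Windows of Egr2, Srf and Nr4a1 are shown because the first pair hold the CArG box to which SRF binds and the last lacks it. Capitals mark CArG boxes and cAMP response element half-sites, TGACG, on either strand, which do not overlap each other here. STAT sites, TTCNNNGAA, were searched on both strands as well.

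Egr2, chr10:67537619-67537918, plus strand: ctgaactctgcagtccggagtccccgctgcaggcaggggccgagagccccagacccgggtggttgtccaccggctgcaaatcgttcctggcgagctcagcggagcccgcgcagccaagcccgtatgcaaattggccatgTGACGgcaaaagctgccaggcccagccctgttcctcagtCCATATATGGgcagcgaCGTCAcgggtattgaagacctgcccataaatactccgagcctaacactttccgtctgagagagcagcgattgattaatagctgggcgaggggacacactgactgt
Srf, chr17:46556113-46556412, minus strand: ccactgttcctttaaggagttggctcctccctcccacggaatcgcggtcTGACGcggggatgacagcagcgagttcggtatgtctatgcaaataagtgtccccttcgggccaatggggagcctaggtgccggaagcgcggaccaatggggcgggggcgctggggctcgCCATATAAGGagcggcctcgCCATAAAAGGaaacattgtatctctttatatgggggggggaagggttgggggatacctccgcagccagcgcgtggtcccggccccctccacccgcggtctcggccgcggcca
Nr4a1, chr15:101266596-101266895, plus strand: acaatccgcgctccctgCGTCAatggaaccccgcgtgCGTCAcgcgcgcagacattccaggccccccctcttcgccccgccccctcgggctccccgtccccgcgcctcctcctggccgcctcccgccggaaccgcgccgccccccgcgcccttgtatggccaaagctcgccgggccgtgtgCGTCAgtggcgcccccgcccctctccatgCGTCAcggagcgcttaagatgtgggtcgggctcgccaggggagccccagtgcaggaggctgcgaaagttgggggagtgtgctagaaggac

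A CArG box lay in windows of 2 of the 7 genes, Egr2 and Srf, against 1.63% of 32841 windows of the same length over all genes. The Srf window held 2, and 4 of the 5 Egr2 windows held 1. Some of these Egr2 windows overlap and hold the same box. The half-site TGACG lay in windows of 5 of the 7 genes, against 20.8% of all windows, with 4 copies in each of Nr4a1, Nr4a2 and Nr4a3. No window of the 7 genes held TTCNNNGAA, which 8.3% of all windows did. These are matches of letters and not sites shown to be bound.

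Egr1 showed the largest change of the 10 genes. Its product is the founding EGR factor, induced in most tissues by growth factors through ERK and SRF. The Egr1 signal was 8.66 and 9.32 on Control replicates 1 and 2, and 10.49, 11.50 and 10.59 on NT-3N replicates 1, 2 and 3. All 3 NT-3N arrays lay above both Control arrays, and NT-3N replicate 2 stood above the other two. The Control mean was 8.99 ± 0.47 (SD, n = 2). In NT-3N it was 10.86 ± 0.56 (SD, n = 3). The log2 difference was 1.87 with a standard error of 0.34. This is a fold of 3.66, with a 95% interval from 2.06 to 6.51. The limma p was 0.00134, the 256th smallest of all features, and its adjusted p of 0.17 missed the threshold of 0.05. Colon is a mixture of cells, so more RNA per cell and more cells that hold it cannot be told apart for this or any other gene.

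Egr2, which encodes a factor known from Schwann cell myelination and from lymphocytes, differed in the same direction. Its signal was 6.05 and 5.54 in Control and 6.82, 7.38 and 6.64 in NT-3N. The groups did not overlap, and NT-3N replicate 2 was again the highest array. The log2 difference was 1.16 with a standard error of 0.28, a fold of 2.23 with a 95% interval from 1.40 to 3.54. The limma p was 0.00522 and the adjusted p 0.27. Under normexp background correction the difference was 0.60.

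Both Egr1 and Egr2 had an unadjusted p under 0.05 in each of the 17 alternative settings, between 2.52e-07 and 0.00923 for Egr1 and between 0.00337 and 0.0366 for Egr2. The highest of each came from leaving out 1 Control array, so that the spread was estimated from the NT-3N arrays alone and taken to hold for Control. Egr1 passed an adjusted p of 0.05 in 1 of them, the local-pooled-error test that the methods of the study name. There its adjusted p was 5.92e-05 and its log2 difference, taken between medians, 1.60. That test takes the spread from features of similar signal and does not use the spread of Egr1 itself. An exact permutation test over the 10 assignments of 5 arrays to groups of 2 and 3 gave p = 0.1 for each of Egr1 and Egr2, which is the smallest value that this design allows.

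Egr3 was dim, and its arrays disagreed within Control. The signal of its brightest probe was 5.46 and 3.84 in Control and 4.95, 5.35 and 5.44 in NT-3N. Control replicate 1 lay above all 3 NT-3N arrays and Control replicate 2 below them. The log2 difference of 0.60 had a 95% interval from -0.57 to 1.76 and a limma adjusted p of 0.73, and without Control replicate 2 it was -0.21. The other 2 probes of Egr3 were not well above background on any array, so they give no level.

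**Figure D1:**
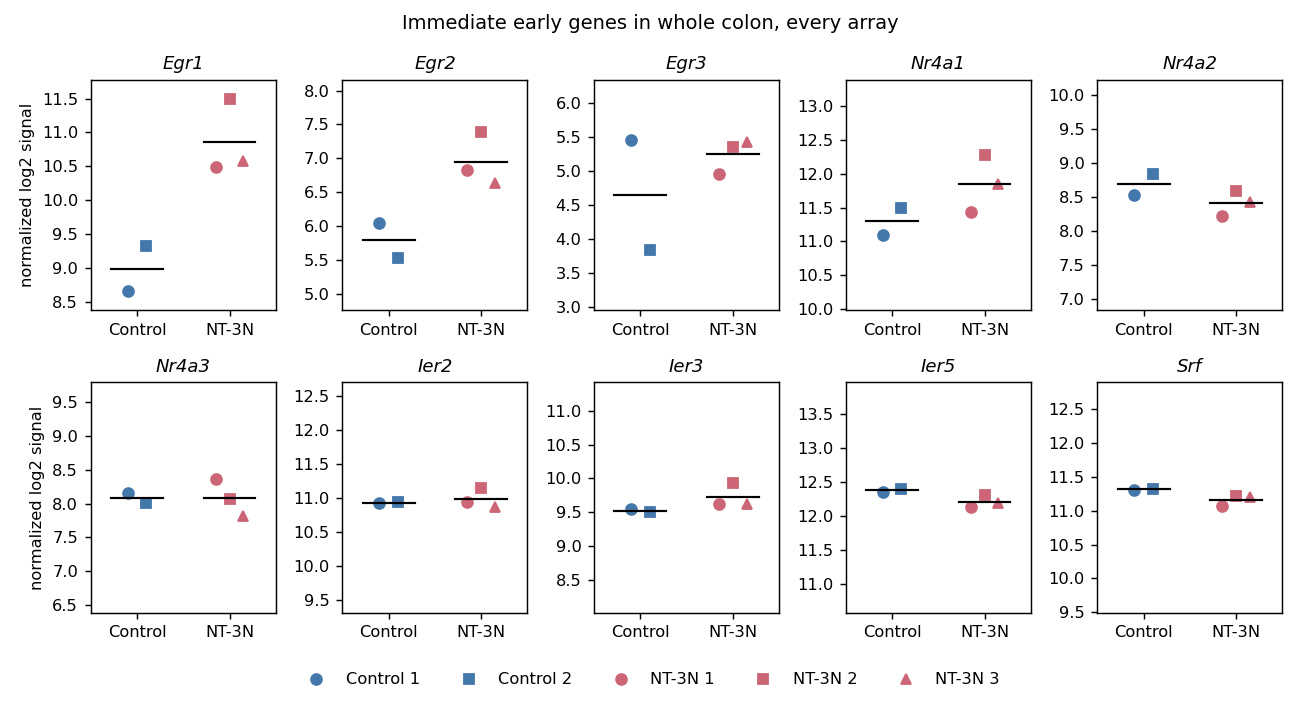
Normalized log2 signal of the 10 genes on each of the 5 arrays, by group; every panel spans the same log2 range, blue points are Control, red points NT-3N, the shape gives the replicate and black lines are group means. Egr1 and Egr2 are separated between the groups, while Control replicates of Egr3 lie 1.62 apart.

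The Nr4a receptors did not move together. Nr4a1, also known as Nur77 and induced by antigen receptor and growth factor signals, had a signal of 11.10 and 11.49 in Control and of 11.43, 12.27 and 11.85 in NT-3N. NT-3N replicate 1 lay below Control replicate 2, so the groups overlapped. The log2 difference was 0.56, with a 95% interval from -0.048 to 1.16 and a limma adjusted p of 0.55. It lay between 0.35 and 0.77 when each array in turn was left out.

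Nr4a2, or Nurr1, known for its role in dopamine neurons, had lower means in NT-3N on both of its probes. The brighter probe read 8.53 and 8.84 in Control and 8.22, 8.59 and 8.42 in NT-3N. Its log2 difference was -0.28, with a 95% interval from -0.67 to 0.12 and a limma adjusted p of 0.64. It was -0.43 without Control replicate 1, and leaving out the other Control array gave -0.12. The other probe gave -0.48 with an adjusted p of 0.55 in a fit with every probe as a feature of its own. The arrays of the groups overlapped on both probes.

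Nr4a3, or Nor1, read 8.16 and 8.01 in Control and 8.36, 8.07 and 7.82 in NT-3N on its brighter probe. NT-3N held both the highest and the lowest array. The log2 difference was -0.0071, with a 95% interval from -0.44 to 0.43, which in folds is 0.735 to 1.35. The other Nr4a3 probe, matched to another transcript, was not well above background on any array.

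The Ier genes and Srf were bright and varied little. Ier2, which encodes a short-lived nuclear protein, read 10.92 and 10.94 in Control and 10.95, 11.15 and 10.86 in NT-3N. Its log2 difference of 0.055 had a 95% interval from -0.21 to 0.32. Ier3, also called IEX-1 and linked to cell survival, read 9.55 and 9.50 in Control and 9.62, 9.93 and 9.62 in NT-3N. All NT-3N arrays lay above both Control arrays, but by little, and the log2 difference of 0.20 had a limma adjusted p of 0.68. Without NT-3N replicate 2 it was 0.094.

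Ier5, which encodes a partner of heat shock factor 1, read 12.36 and 12.40 in Control and 12.14, 12.30 and 12.19 in NT-3N. Srf read 11.31 and 11.32 in Control and 11.07, 11.22 and 11.20 in NT-3N. For both genes every NT-3N array lay below both Control arrays. The log2 differences were -0.17 for Ier5 and -0.15 for Srf, with limma adjusted p of 0.60 and 0.64 and 95% intervals from -0.38 to 0.039 and from -0.37 to 0.066.

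**Figure D2:**
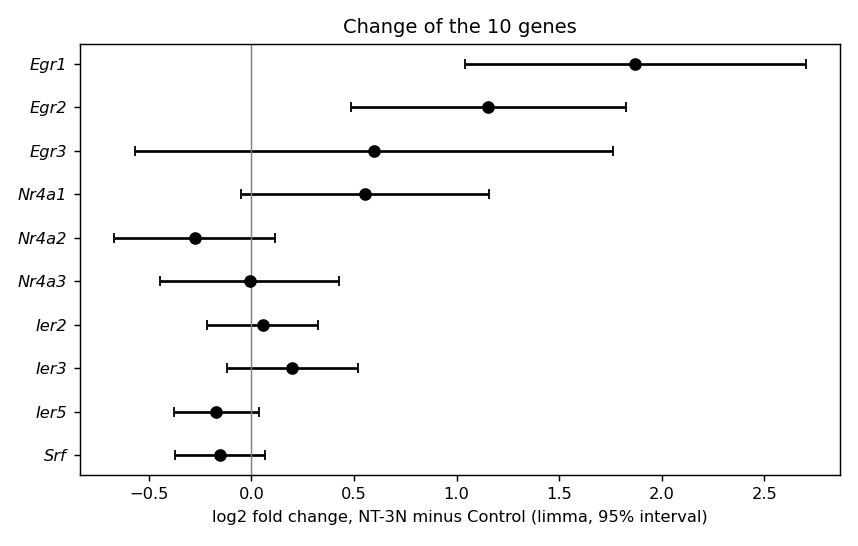
Log2 fold change, NT-3N minus Control, of the 10 genes (points) with the 95% interval of the limma fit (bars). The intervals of Egr1, from 1.04 to 2.70, and Egr2, from 0.49 to 1.82, lie above 0, and those of the other genes include 0.

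None of the 10 genes reached an adjusted p under 0.05 in limma, where 0.125% of all 32917 features were called higher. Without adjustment, 2 of the 10 had p under 0.05 and were higher, Egr1 and Egr2, and 0 lower, against 4.95% higher and 4.67% lower over all features. The groups' arrays did not overlap for 3 genes that were higher, Egr1, Egr2 and Ier3, and for 2 that were lower, Ier5 and Srf, against 13.5% and 14.8% of all features. In direction 6 of the 10 were higher and 4 lower, with a median log2 difference of 0.13 against -0.019 over all features.

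Pairs of genes were also compared within arrays, as a description of values already given. Egr1 was higher in NT-3N without overlap of the groups against 7 of the 9 other genes. Against the other 2, Egr2 and Egr3, the groups overlapped. As an example of the former, Egr1 minus Nr4a1 was -2.44 and -2.17 in Control and -0.94, -0.77 and -1.27 in NT-3N. Against Fos, chosen after its values were seen as the best known immediate early gene outside the 10, Egr1 differed by -4.63 and -3.74 in Control and by -2.77, -2.27 and -2.64 in NT-3N. These are log2 differences between probes and show unequal change only.

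The arrays of NT-3N were not alike. NT-3N replicate 2 lay above replicate 1 for 9 of the 10 genes, Nr4a3 being the exception, and above replicate 3 for 9, with Egr3 as the exception. Over all features the median difference of replicate 2 from replicate 1 was -3.3e-05, and 47.2% were higher on replicate 2 than on replicate 3. The median excess of replicate 2 over replicate 1 was 0.34 for the 10 genes. It was 1.01 for Egr1 and 0.84 for Nr4a1, so for Nr4a1 the gap between mice of the same group was larger than the log2 difference between groups. Without NT-3N replicate 2 the Egr1 difference was 1.55 and that of Egr2 0.94, while Ier2 turned to -0.026. Some cell type markers also had a higher log2 summed signal on NT-3N replicate 2 than on replicate 1, with 16.47 against 15.89 for fibroblast, 13.60 against 13.13 for macrophage, 18.81 against 18.48 for smooth muscle and 12.04 against 11.78 for endothelial markers. Those of enteric neurons and glia, 13.20 against 12.78, and of erythroid cells, 13.92 against 13.77, were higher as well. Those of B cells, T cells, neutrophils, epithelium and adipocytes were lower on replicate 2, with 12.58 against 13.29 for adipocytes. The part of any of these cells in the array pattern was not tested.

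**Figure D3:**
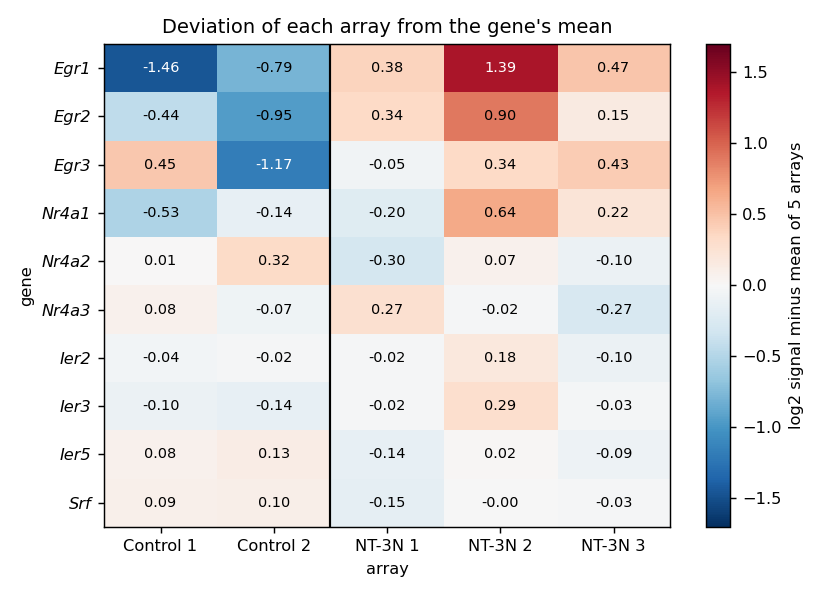
Signal of each array minus the gene's mean over the 5 arrays, on the log2 scale, for the 10 genes (rows) and 5 arrays (columns); the black line separates Control from NT-3N. NT-3N replicate 2 is the highest array for 5 of the 10 genes, and Egr1 ranges from -1.46 to 1.39.

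Partners of Egr and Srf proteins were read from a list of 12 genes, of which 10 were tested. Egr4, the remaining Egr gene, was not kept by the filter on dim probes, and Nab1 had no matched probe. Limma made 0 calls among them, and 2 had p under 0.05 before adjustment. Of these 1 was higher and 1 lower, against 4.95% and 4.67% of all features. Ier5l, a relative of Ier5, had a log2 difference of 0.44 and a limma adjusted p of 0.33. Myocd, which encodes myocardin, the SRF coactivator of smooth and cardiac muscle, had a log2 difference of -0.89 and a limma adjusted p of 0.15. Its signal was 8.35 and 8.30 in Control and 7.21, 7.61 and 7.48 in NT-3N. The other 8 tested genes of the list, which include those of ternary complex factors and of the myocardin-related coactivators, had log2 differences between -0.057 and 0.29. Among them the Elk1 probe was very bright, at 18.16 to 18.39, and whether it reads Elk1 alone was not tested.

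Of 15 genes of AP-1 and other immediate early transcription factors 11 were higher and 4 lower, and limma made 0 calls. Before adjustment 5 of the 15 had p under 0.05, 4 of them higher and 1 lower, against 4.95% and 4.67% of all features. Maff had a log2 difference of 0.93, Myc of 0.80, Junb of 0.65 and Fosl2 of 0.43, and Jund, an AP-1 gene that is expressed at rest, of -0.25. Their adjusted p lay between 0.15 and 0.43. Fos itself read 13.29 and 13.06 in Control and 13.26, 13.78 and 13.23 in NT-3N, so its groups overlapped. NT-3N replicate 2 was the highest array for 10 of these 15 genes, against 15.7% of all features.

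Of 25 feedback and effector genes 19 were higher and 6 lower. Limma called 1, Gem, which encodes a small GTPase that restrains calcium channels, with a log2 difference of 2.14 and an adjusted p of 0.00573. It was not called with no filter on dim probes, with no intensity trend, with replicate number as a block or without NT-3N replicate 3. Dusp1, which encodes a phosphatase of MAP kinases, differed by 0.55, its relative Dusp2 by 1.03, Arc by 0.58 and Zfp36l1, an RNA decay factor gene, by 0.36. The Control arrays of Dusp2 disagreed, with 9.34 and 7.87 against 9.58, 9.61 and 9.72 in NT-3N, so its difference rests largely on Control replicate 2. Rgs2, which encodes an inhibitor of G protein signalling, differed by -0.61. These 5 had an unadjusted p under 0.05 and adjusted p between 0.23 and 0.49. With Gem, 5 of the 25 genes were higher and 1 lower at that unadjusted p, against 4.95% and 4.67% of all features. The ERK feedback genes Dusp4, Dusp5, Dusp6, Spry2, Spry4 and Spred1, named for their role after their values were seen, had log2 differences between -0.32 for Dusp6 and 0.22 for Spred1. Of these Spred1 had every NT-3N array above both Control arrays, with a limma adjusted p of 0.56, and the others overlapped.

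Of 13 actin and cytoskeletal targets of SRF 4 were higher and 9 lower, with a median log2 difference of -0.11. Limma made 0 calls, while 2 had p under 0.05 before adjustment, Tagln with a log2 difference of -0.25 and Flna with -0.22. Over all features 4.67% were lower at that p. Several of the 13 genes are also smooth muscle markers. Over the smooth muscle list 0 of 10 genes were higher, and for 9 every NT-3N array lay below both Control arrays, against 14.8% of all features. The log2 of the summed signal of that list was 18.93 to 18.98 in Control and 18.48 to 18.81 in NT-3N. The part of smooth muscle content in the values of Srf, Myocd and the cytoskeletal genes was not tested.

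**Figure D4:**
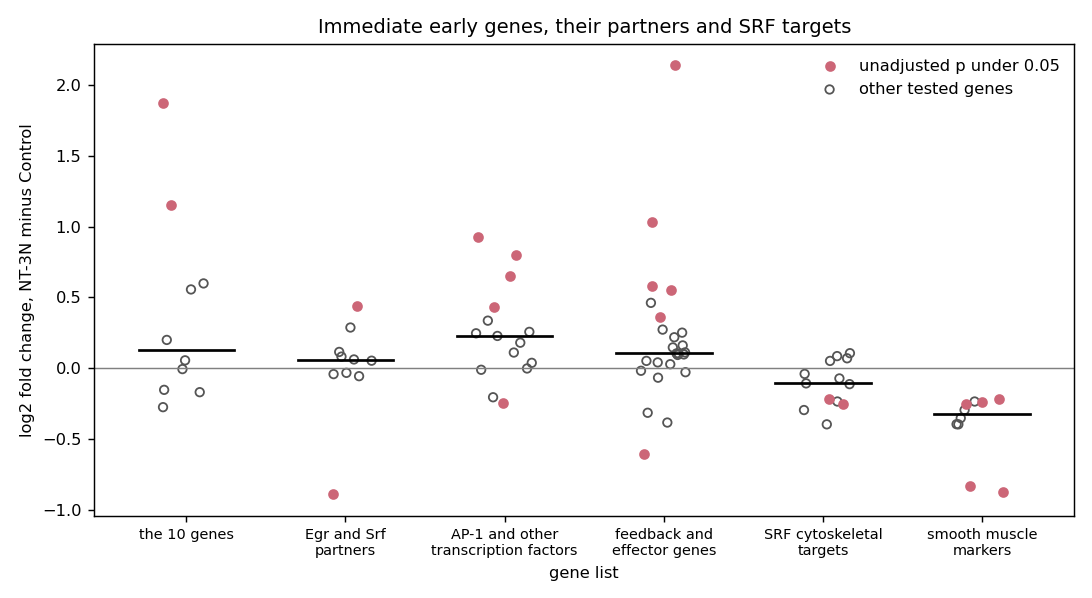
Log2 fold change, NT-3N minus Control, of single genes (points) in the 10 genes, 4 lists of partners and related genes and the smooth muscle markers; red points have an unadjusted limma p under 0.05 and black lines are medians. The medians run from 0.23 for AP-1 and other transcription factors to -0.33 for smooth muscle markers.

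Markers of other cell types were read on the same arrays. All 4 erythroid markers tested were higher on every NT-3N array than on both Control arrays, against 13.5% of all features. The probes of Hba-a1 and Hba-a2 read nearly alike on every array, so they may not be separate readings. The log2 summed signal of the erythroid markers was 13.32 to 13.41 in Control and 13.59 to 13.92 in NT-3N. The 8 B cell markers had a log2 summed signal of 12.26 on Control replicate 1 and 10.20 on Control replicate 2, against 12.14 to 12.41 in NT-3N. Among them Ms4a1 read 4.95 and 6.53 in Control and 9.54, 9.13 and 9.51 in NT-3N, with a limma adjusted p of 0.0595. Of 8 neutrophil markers 5 were tested, and 4 of these, S100a8 and S100a9 among them, had higher means in NT-3N. S100a9 read 1.56 and 1.58 in Control and 8.58, 6.23 and 6.65 in NT-3N. S100a8 read 2.57 and 2.51 in Control and 6.21, 4.28 and 5.15 in NT-3N. Each of these probes was well above background on only 3 of the 5 arrays. Both thus passed the filter through arrays on which they were high, and their dim Control signals give no level. The summed neutrophil signal was 16.23 to 16.25 in Control and 15.97 to 16.24 in NT-3N. It was close to that of Csf3r alone, which read 16.25 and 16.23 in Control and 16.23, 15.96 and 16.04 in NT-3N. Whether so bright a probe reads Csf3r alone was not tested. Gfap, a glial marker, was the 1 gene called in the enteric neuron and glia list, with a log2 difference of 1.84 and a limma adjusted p of 0.012. Epithelial markers gave a log2 summed signal of 19.99 on both Control arrays and 19.86 to 20.01 in NT-3N. The part of any of these cells in the Egr values was not tested.

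The likeness of other genes to the pattern of a member was measured as the root mean square difference of centred log2 signals over the 5 arrays, among 16736 genes well above background on all of them. Closest to Egr1 were Lrrtm2 at 0.33, Serpina3j at 0.34 and Ikzf4 at 0.35. Serpina3j is one of a cluster of close copies, so its probe may read others of the cluster. Egr2 came 59th at 0.53 and Nr4a1 178th at 0.67. Closest to Nr4a1 were B4galnt3 at 0.065, 9930014A18Rik at 0.071 and Rbm20 at 0.098, and closest to Ier3 were Plvap at 0.030, Kifc1 at 0.035 and Ptch1 at 0.035, with Ier2 148th at 0.082. Many genes vary little over 5 arrays, so small differences are common for genes that vary as little as Ier3.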

How the data were processed

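RNA of 5 mouse colons was hybridised to SurePrint G3 arrays. The authors extracted spot values with Agilent Feature Extraction 11.0.1.1, and the deposited scanner files give a background-subtracted intensity for every spot, not scaled between arrays. The deposited log2 values, which the authors log-transformed and quantile-normalized, served as an alternative.

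Control and outlier spots were left out, and log2 processed signal was averaged over spots of a probe and quantile-normalized. Accessions were matched to symbols in RefSeq (GRCm38.p6), which named 32994 of 56605 probes. Probes had to be flagged well above background by 2 or more of the 5 arrays and to have values on both controls and on 2 or more NT-3N arrays. The brightest probe stood for a gene. The test was limma (version 3.58.1, R 4.3.3) with lmFit and eBayes, an intensity trend, two-sided p-values and Benjamini-Hochberg adjustment across every feature. A local-pooled-error test, used in the study, was written after its published description and run as an alternative. That test takes the spread wholly from features of similar signal, whereas limma combines the spread of each feature with that of the others. Tests were checked on simulated data.

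The 10 genes and the lists were chosen with earlier results of these data known. Genes of the 4 related lists were named where adjusted p was under 0.05, or where unadjusted p was under 0.05 and the groups did not overlap, and, for likeness, the 3 nearest; Fos and 6 ERK feedback genes were added after their values were seen, and cell type markers were named only beside a result. The number of arrays limits precision. Alternatives covered scaling, background, deposited values, filter, variance model, array weights, replicate block, leaving out each array, several probes and the test. The normexp correction used median spot signals.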

Additional observations from a re-analysis of the deposited data

How the results depend on the processing

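No gene of the 10 reached an adjusted p of 0.05 in limma under the alternatives run with it, where Egr3 had no value among the deposited values; with the local-pooled-error test 1 gene, Egr1, was called. Over all features limma called 41 higher and 6 lower. These counts were 2 and 0 with no filter on dim probes and with no intensity trend, 124 and 46 with array quality weights and 213 and 184 with the local-pooled-error test, and the lower count was 11 with the deposited values, 13 with probes above background on all arrays and 16 with every probe tested. When single arrays were left out, between 0 and 114 features were called higher (114 without Control replicate 2, 0 without NT-3N replicate 3) and between 0 and 16 lower. The cause was not tested.

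Gem, the 1 pathway gene called, became 0 with no filter and with no trend and 2 genes with the local-pooled-error test, and the count ranged from 0 to 2 without each array. Leaving out single arrays gave differences from -0.21 (without Control replicate 2) to 1.41 for Egr3, from -0.026 (without NT-3N replicate 2) to 0.12 for Ier2 and from -0.15 to 0.12 for Nr4a3, which was 0.067 when Control replicate 1 and 0.12 when NT-3N replicate 3 was dropped. Nr4a3 was also at 0.033 with normexp and 0.0013 with the deposited values. Egr1, Egr2, Nr4a1, Nr4a2, Ier3, Ier5 and Srf kept their direction throughout. Scaling moved the median of all features by less than 0.1.

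Nothing in the labels pairs mice by replicate number, and same-numbered arrays deviated from their groups with r = 0.13 (number 1) and 0.036 (number 2). With the replicate block limma called 0 features higher and 0 lower, with 2488 at an unadjusted p under 0.05, and 0 pathway genes, with the difference of Nr4a3 at 0.12, of Egr1 at 2.01 (adjusted p = 0.35) and of Egr2 at 1.31 (adjusted p = 0.61).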
